A study of Mus musculus with 8 samples.

Results

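The subject here is a set of 9 transcription factors that hold the identity of hepatocytes: the nuclear receptor Hnf4a, the forkhead factors Foxa1, Foxa2 and Foxa3, the leucine zipper factors Cebpa and Cebpb, the cut-homeodomain factors Onecut1 and Onecut2, and the homeobox factor Prox1. They were taken by name, not by a cut on any measured value, from 56953 gene identifiers in the deposited counts. Earlier results of these data were known when they were chosen. All 9 were found, and all 9 passed the filter on low counts among 15669 genes tested. The material was whole liver from adult male mice, all in 1 batch by the labels. Every animal had been fed CDHFD, a high-fat diet without choline that brings on fatty liver with inflammation and scarring, for 8 weeks. One group of 4 control samples carried the genotype label WT. The other 4 samples, labelled HSC-PCK1-KO and called knockout here, lacked PCK1, the enzyme that makes phosphoenolpyruvate from oxaloacetate, in hepatic stellate cells. Stellate cells are the vitamin A storing cells of the liver. The diet was shared by both groups, and no sample on another diet was analysed here. The Cre line or other means of deletion is not given in the sources used here, and although the design text speaks of biological replicates, it does not say whether each sample came from its own mouse.

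As background, HNF4A binds as a homodimer at the control regions of a large share of hepatocyte genes, such as those for apolipoproteins and clotting factors. FOXA proteins open compacted chromatin for other factors, C/EBP-alpha (Cebpa) drives metabolic genes of the resting hepatocyte, and C/EBP-beta (Cebpb) is best known in the acute phase response and in regeneration. ONECUT1, also called HNF6, and ONECUT2 act in liver development and in bile duct formation, and PROX1 works with HNF4A as a corepressor of bile acid synthesis and also marks lymphatic endothelium. These factors bind one another's genes and so form a network. The comparison of the genotypes asks whether the transcript levels of this hepatocyte network differed when the deletion lay in another cell type.

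Library totals ran from 44695439 to 49477255 counts. Pck1, the targeted gene, stood at 1002, 2012, 551 and 1028 CPM (counts per 1000000 counts of the library, with totals scaled by TMM normalization factors) in control replicates 1 to 4 and at 339, 795, 593 and 948 CPM in knockout replicates 1 to 4. The groups overlapped. Hepatocytes also make this transcript, so these values do not check a deletion in stellate cells. The tissue label was borne out by hepatocyte markers, with Alb (albumin) at 57490 to 81250 CPM over the 8 libraries. In RNA from whole tissue, fewer cells of a type and less RNA per cell cannot be told apart.

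Stretches of promoter from 2 of the 9 genes are shown because they hold, or lack, letters that ONECUT proteins, members of the same network, are known to bind. RefSeq promoter windows (build GRCm38.p6) were matched by symbol for 8 of the 9 factors, 12 windows in all, and the 250 bases before each start site were searched on both strands for HNF4 (CAAAGTCCA), FOXA (TGTTTAC and TGTTTGC), C/EBP (TTGCGCAA and TTGCNNAA) and ONECUT (ATCGAT and ATTGATT) letters. TTGCGCAA is itself a match to TTGCNNAA, and no other motif contains another. A match to any of these 7 was present in 4 of the 12 windows, and in 18.8% of all 32851 windows of the same length in the table. Hnf4a has 2 start regions in this table. Counting from the start site, with negative positions before it, the ONECUT letters ATTGATT lie at -60 to -54 of the upstream start, on the reverse strand, and were not found in the window of the downstream start. In Foxa2 they lie at -213 to -207 of the most upstream of 3 starts. The other matches were TGTTTAC on the reverse strand at -141 to -135 of Foxa1 and TGTTTGC at -120 to -114 of the downstream start of Prox1. Of all windows 2.61% held ATTGATT, 3.17% TGTTTAC and 4.3% TGTTTGC. The most common, TTGCNNAA, was in 9.56% of them and in none of the 12. A match is a string of letters and not a measured binding site. The deposited counts are per gene, so the 2 Hnf4a starts are summed in every value below. Below are 100 bases from each of these Hnf4a regions and from Foxa2, written 5′ to 3′ on the strand of the gene with ATTGATT or its reverse complement in capitals. They lie at chr2:163506707-163506806 (plus strand), chr2:163547005-163547104 (plus strand) and chr2:148047120-148047219 (minus strand).
Hnf4a upstream start, -150 to -51: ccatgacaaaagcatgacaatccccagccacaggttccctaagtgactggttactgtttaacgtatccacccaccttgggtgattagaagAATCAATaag
Hnf4a downstream start, -150 to -51: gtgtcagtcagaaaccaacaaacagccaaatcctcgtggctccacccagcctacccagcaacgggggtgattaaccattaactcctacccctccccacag
Foxa2 most upstream start, 100 bases from -250 on: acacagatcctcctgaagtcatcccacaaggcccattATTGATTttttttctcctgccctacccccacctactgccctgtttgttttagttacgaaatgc

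For no member of the set was a difference between knockout and control livers detected beyond the spread of the replicates. In edgeR's quasi-likelihood test 0 of the 9 passed an adjusted p of 0.05, where 0% of all 15669 genes did, and the adjusted p was 0.9998 for each of them. DESeq2 called 6 genes and limma-voom 0 of the same 15669, none of them a member. At an unadjusted p under 0.05 there were 0 of the 9 in edgeR, against 2.36% of all genes (1.02% higher and 1.34% lower in knockout livers). In every one of the 9 the groups overlapped, while 1.53% of all genes had groups that did not (0.721% higher and 0.811% lower). Log2 fold changes are given throughout as the knockout value less the control value. The sign was negative in 6 members and positive in 3, with a median of -0.079, beside -0.0055 over all genes tested. The 95% interval left out a 1.5-fold change in either direction for 6 of the 9, and a 2-fold change in either direction for all but Onecut1.

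**Figure D1:**
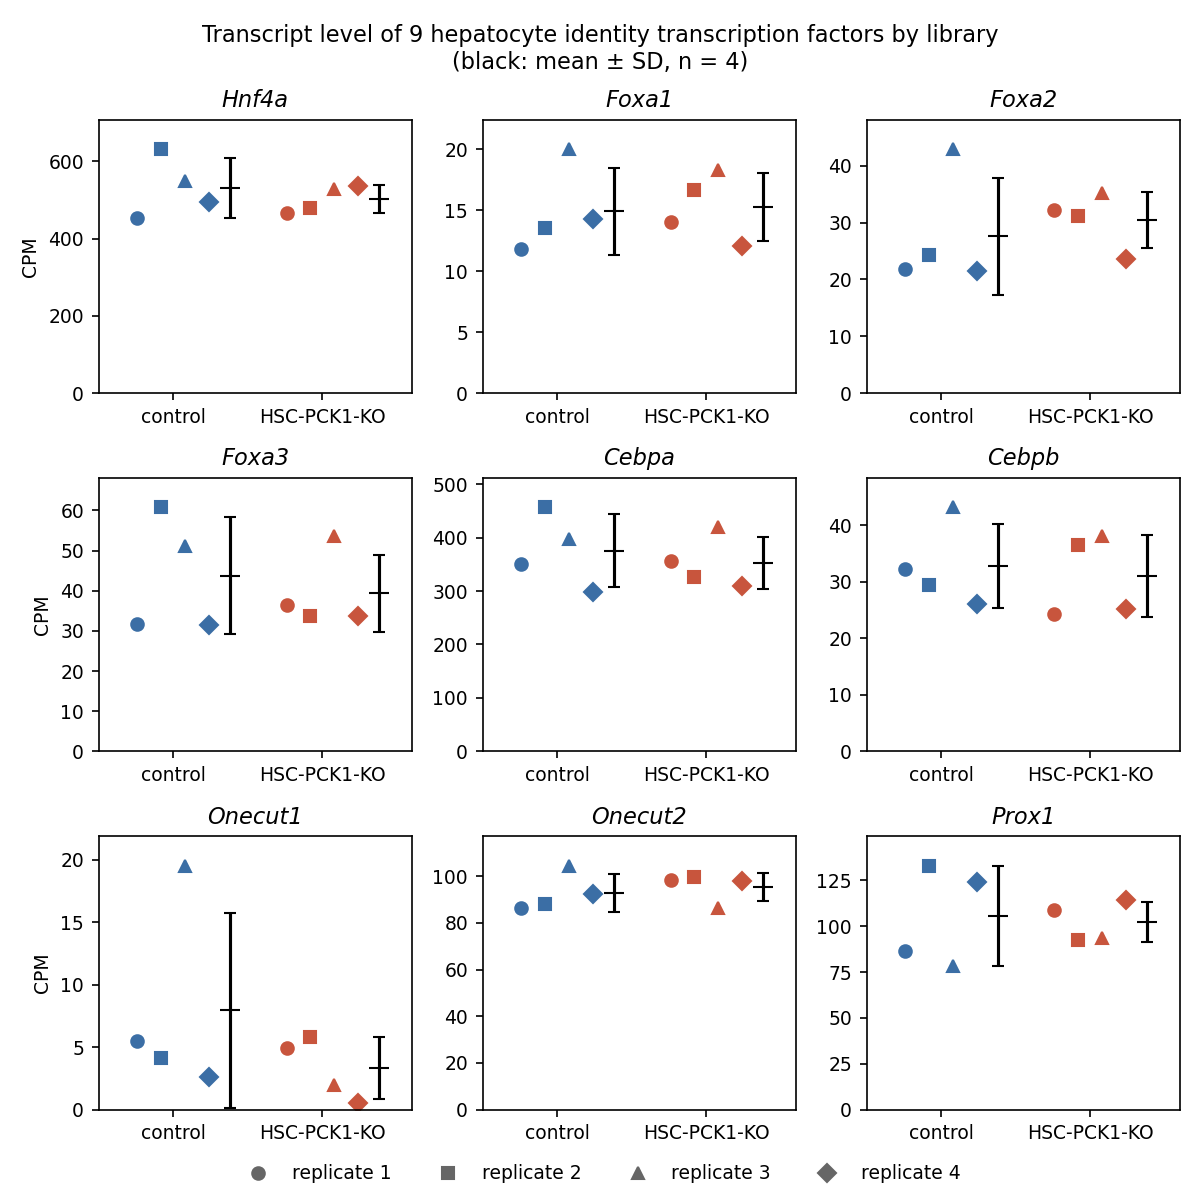
CPM of each factor in the 8 libraries (vertical axes from 0, 1 panel per gene), with symbols for the replicate number, blue for control and red for HSC-PCK1-KO, and black bars for the mean ± SD of 4. The groups overlap in all 9 panels, and Onecut1 in control replicate 3 (19.6 CPM) stands far above the other libraries.

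Hnf4a (ENSMUSG00000017950.17), the receptor at the centre of the network, had the most counts of the 9. It stood at 453, 633, 549 and 494 CPM in control replicates 1 to 4 and at 467, 478, 530 and 537 CPM in knockout replicates 1 to 4. The lowest and the highest library were both controls, and every knockout library lay between them. Control livers averaged 532 ± 77.7 and knockout livers 503 ± 35.4 CPM (SD, n = 4 each), or -0.081 on the log2 scale (SE 0.11) with a 95% interval from -0.33 to 0.17, or from 1.26-fold lower to 1.125-fold higher. Leaving out control replicate 2 gave 0.013.

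Among the forkhead factors, Foxa3 had the highest CPM and Foxa1 the lowest. Foxa1 (ENSMUSG00000035451.8), which acts with Foxa2 in liver specification and bile duct control, stood at 11.8, 13.5, 20.02 and 14.2 CPM in control and at 14.03, 16.7, 18.3 and 12.1 CPM in knockout replicates 1 to 4. Control replicate 3 was the highest and control replicate 1 the lowest. Foxa1 thus had a log2 fold change of 0.034 (SE 0.18, 95% interval -0.36 to 0.43), and without knockout replicate 3 it was -0.064.

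Foxa2 (ENSMUSG00000037025.12), which also has a part in fasting metabolism and bile acid handling, stood at 21.9, 24.2, 43.0 and 21.4 CPM in control and at 32.2, 31.2, 35.1 and 23.6 CPM in knockout replicates 1 to 4. Of the control libraries 3 lay close together and the third far above them, higher than any knockout library. For Foxa2 this gave a log2 fold change of 0.14 (SE 0.24, 95% interval -0.40 to 0.69). Without control replicate 3 it was 0.45, with an unadjusted p of 0.00696 and an adjusted p of 0.9998 in edgeR, so the value turns on that library. It was 0.041 without control replicate 4.

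Foxa3 (ENSMUSG00000040891.7), the forkhead factor that is most abundant in adult liver, stood at 31.8, 60.8, 51.1 and 31.4 CPM in control and at 36.4, 33.7, 53.7 and 33.7 CPM in knockout replicates 1 to 4. In control 2 libraries were high and 2 low, and in knockout only replicate 3 was high. The difference for Foxa3 was -0.15 on the log2 scale (SE 0.25, 95% interval -0.74 to 0.43). Without control replicate 2 it was 0.048, and without knockout replicate 3 it was -0.34.

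Cebpa (ENSMUSG00000034957.11), the metabolic factor of the C/EBP pair, stood at 351, 457, 397 and 298 CPM in control and at 356, 326, 419 and 310 CPM in knockout replicates 1 to 4, a log2 fold change of -0.09 (SE 0.14, 95% interval -0.40 to 0.22). The group means were 376 ± 67.5 and 353 ± 48.2 CPM (SD, n = 4), and the lowest and highest libraries were again both controls. Cebpb (ENSMUSG00000056501.4), the acute phase factor, stood at 32.2, 29.4, 43.2 and 26.1 CPM in control and at 24.3, 36.5, 38.1 and 25.2 CPM in knockout replicates 1 to 4. Its log2 fold change was -0.079 (SE 0.20, 95% interval -0.53 to 0.37), and it was 0.088 without control replicate 3. The 2 low knockout libraries, replicates 1 and 4, lay below every control library. The log2 ratio of Cebpb to Cebpa within a library was taken to follow the balance between the acute and the resting factor. It uses CPM without regard to gene length, so its level is not that balance, and only its difference between groups is read. The ratio was -3.53 ± 0.32 in control and -3.53 ± 0.30 in knockout livers (SD, n = 4), with a difference of -0.0015 and a two-sided exact permutation p of 1. The difference lay between -0.14 and 0.11 as each library was left out in turn. Cebpa and Cebpb are also expressed in myeloid cells. The summed level of 10 myeloid markers was 220.3 to 434.3 CPM in control and 218.5 to 366.8 CPM in knockout libraries, 8 of the 10 were lower in the mean log2 difference, and the neutrophil genes S100a8 and S100a9 stayed under 2 CPM in every library. The part of these cells in the values of Cebpa and Cebpb was not tested. Tmem189, on the opposite strand, shares 15.2% of the 100-base windows of the Cebpb transcripts, and whether the counting used strand is not stated.

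The members of the ONECUT pair lay at the opposite ends of the set in their spread over the libraries. Onecut1 (ENSMUSG00000043013.11) stood at 5.50, 4.13, 19.6 and 2.60 CPM in control and at 4.96, 5.79, 1.99 and 0.569 CPM in knockout replicates 1 to 4. These come from 28 counts in the lowest library to 925 in the highest, a 34.4-fold range. Control replicate 3 lay far above the other 7 libraries, and knockout replicates 3 and 4 below every control. The means were 7.95 ± 7.83 and 3.33 ± 2.46 CPM (SD, n = 4), which is -1.26 on the log2 scale (SE 0.86) with a 95% interval from -3.29 to 0.78. The interval thus runs from a 9.78-fold fall to a 1.72-fold rise, and edgeR's unadjusted p was 0.188. Leaving out control replicate 3 gave -0.29. The coefficient of variation over the 8 libraries was 105%, higher than in 99.8% of the genes tested.

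Onecut2 (ENSMUSG00000045991.20) was the steadiest of the 9. It stood at 86.3, 88.1, 104.5 and 92.2 CPM in control and at 98.1, 99.5, 86.4 and 97.8 CPM in knockout replicates 1 to 4. The highest library was 1.21 times the lowest, and the coefficient of variation of 7.28% was higher than in only 19.3% of the genes tested. The log2 fold change was 0.041 (SE 0.082), and the 95% interval reached from 1.10-fold lower to 1.17-fold higher. The log2 ratio of Onecut2 to Onecut1, also on CPM without regard to gene length, was 3.98 ± 1.14 in control and 5.28 ± 1.48 in knockout livers (SD, n = 4). That difference of 1.30 had a two-sided exact permutation p of 0.229 (0.457 adjusted over the 2 ratios tested), where 0.0286 is the smallest p that 4 against 4 can give. Leaving out control replicate 3 gave 0.78, and leaving out knockout replicate 4 gave 0.62.

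ONECUT and FOXA factors are made in bile duct cells as well. Of 7 cholangiocyte markers 6 were tested and 5 had a negative difference, with a summed level of 48.3 to 158.2 CPM in control and 46.0 to 96.7 CPM in knockout libraries. Spp1, which macrophages also make, was at 19.8 to 130.8 CPM of that sum. Krt19, a duct keratin, stayed at 0.467 to 1.13 CPM (a log2 fold change of -0.61, unadjusted p of 0.0333 in edgeR) and Cftr, a duct chloride channel, at 0.0472 to 0.254 CPM. Their part in the values of the ONECUT and FOXA genes was not tested. In the earlier annotation used for names, a non-coding gene on the same strand as Onecut1, Gm20649, shares 51.7% of the 100-base windows of the Onecut1 transcripts. It was listed with 0 counts in each of the 8 libraries. How the counting treated reads in the shared stretch is not given in the sources used here, so the level of Onecut1 is uncertain.

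Prox1 (ENSMUSG00000010175.14), the corepressor, stood at 86.4, 133, 78.4 and 124 CPM in control and at 109, 92.4, 93.6 and 114 CPM in knockout replicates 1 to 4. The knockout libraries all lay inside the control range. Its log2 fold change was -0.047 (SE 0.17, 95% interval -0.43 to 0.34), and it was 0.084 without control replicate 2. Lymphatic endothelium is another source of Prox1 in liver. Its markers Pdpn, Ccl21a and Mmrn1 stayed under 0.65 CPM in all libraries, while Flt4 and Lyve1, which sinusoidal endothelium shares, made up nearly all of a summed level of 26.4 to 39.3 CPM in control and 24.9 to 37.0 CPM in knockout libraries. The part of these cells in the values of Prox1 was not tested. The opposite-strand gene Prox1os shares 0.405% of the 100-base windows of the Prox1 transcripts.

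**Figure D2:**
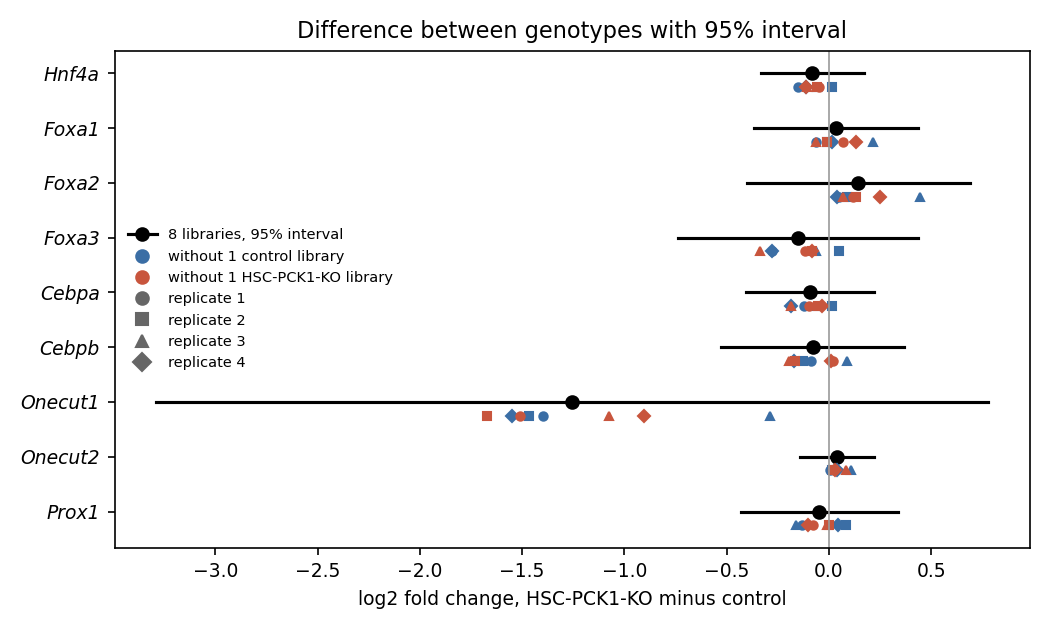
Log2 fold change of each factor between HSC-PCK1-KO and control (horizontal axis), as a black point with its 95% interval from edgeR, and below it the value with 1 library left out, coloured by the group and shaped by the replicate that was removed. All 9 intervals include 0, and that of Onecut1, from -3.29 to 0.78, is the widest.

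Levels can be compared between the genes only per length, here as CPM per kilobase (kb) of exon in GENCODE M21, over all 8 libraries. Cebpa led with 138 ± 21.1 and Hnf4a followed with 107 ± 12.01 CPM per kb (SD, n = 8). Cebpa was above Hnf4a in 8 of 8 libraries although their ranges overlapped. Cebpb at 21.2 ± 4.57 and Foxa3 at 20.4 ± 5.74 CPM per kb did not differ beyond their spread, with Cebpb above in 5 of 8 libraries. Prox1 at 12.4 ± 2.29 and Foxa2 at 12.3 ± 3.22 CPM per kb did not either, with Prox1 above in 4 of 8. Onecut2 at 5.80 ± 0.42, Foxa1 at 4.53 ± 0.89 and Onecut1 at 1.37 ± 1.44 CPM per kb were lowest. Onecut2 was above Foxa1 in 7 of 8 libraries, and Foxa1 above Onecut1 in 8 of 8. Onecut2 has 16.2 kb of exon, so that its rank by CPM, above each FOXA gene, is not its rank per length.

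**Figure D3:**
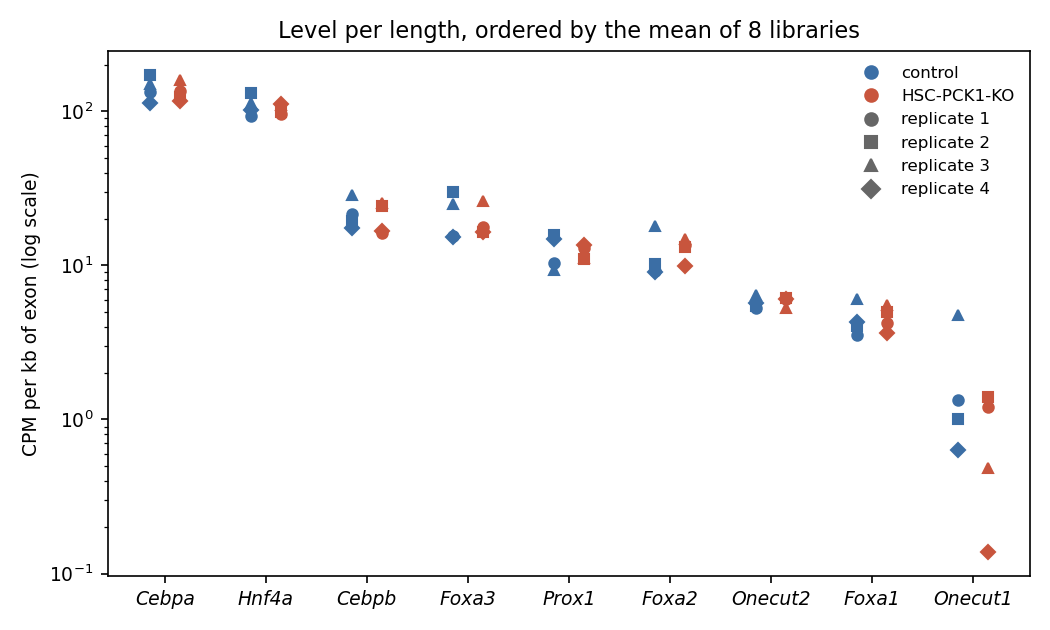
CPM per kb of exon (logarithmic vertical axis) for the 9 factors in order of their mean over 8 libraries, with 1 point per library, blue for control and red for HSC-PCK1-KO. Cebpa and Hnf4a lie above 90 CPM per kb in every library, and Onecut1 spreads from 0.138 to 4.75 CPM per kb.

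The libraries that stood out for one factor stood out for others. Every one of the 9 had its highest CPM in a control library, Hnf4a, Foxa3, Cebpa and Prox1 in control replicate 2 and Foxa1, Foxa2, Cebpb, Onecut1 and Onecut2 in control replicate 3. This pattern was chosen after its values were seen, and the share of all tested genes that show it was not counted. It is thus not shown to be particular to these factors. The lowest CPM of most members also lay in a control library. That was control replicate 1 for Hnf4a, Foxa1 and Onecut2, control replicate 4 for Foxa2, Foxa3 and Cebpa, and control replicate 3 for Prox1. For Cebpb it was knockout replicate 1 and for Onecut1 knockout replicate 4. With library totals in place of TMM factors, control replicate 2 or 3 was highest for 8 of the 9, and control replicate 4 for Prox1. With RLE or upper quartile factors, control replicate 2 or 3 was highest for all 9. Control replicate 2 was also the library with the most Pck1, at 2012 CPM. Summed hepatocyte markers were at 126400 CPM in control replicate 2 and 120900 CPM in control replicate 3, inside the range of 113200 to 136700 CPM over all 8. Myeloid markers were at 236.7 and 220.3 CPM in the same libraries, and stellate and myofibroblast markers at 136.0 and 137.1 CPM, the lowest of the controls in both sums. Their part in the pattern was not tested.

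Across the 8 libraries, Foxa3 and Cebpa varied together. Their log2 CPM had Pearson's r of 0.94 (exact permutation p = 0.001, adjusted p = 0.0366 over 36 pairs) and Spearman's rho of 0.93 (exact permutation p = 0.0022, adjusted p = 0.0804). The value was 0.94 after centring each group on its own mean. Without the 2 libraries farthest from the median of Foxa3 it was 0.82 (exact permutation p = 0.0375, adjusted p = 0.733), which did not pass. Over all 8 libraries Foxa3 with Cebpa was the only 1 of the 36 pairs of members to pass on Pearson's r. None passed on Spearman's rho. Foxa1 and Foxa2 came next, with r of 0.88 (exact permutation p = 0.0045, adjusted p = 0.0808) and rho of 0.71 (exact permutation p = 0.0576, adjusted p = 0.495). Without the 2 libraries farthest in Foxa1 that r was 0.64, and without the 2 farthest in Foxa2 it was 0.90. Hnf4a with Foxa3 had r of 0.81 and rho of 0.60, and Foxa1 with Cebpb r of 0.78 and rho of 0.64, with exact permutation p of 0.0109 and 0.027 for r (adjusted p = 0.131 and 0.215) and 0.132 and 0.0962 for rho. Hnf4a with Foxa3 had r of 0.61 without the 2 libraries farthest in Hnf4a and 0.63 without the 2 farthest in Foxa3. For Foxa1 with Cebpb it was 0.39 without the 2 farthest in Foxa1 and 0.72 without the 2 farthest in Cebpb. Cebpb and Prox1 ran in opposite directions, with r of -0.78 (exact permutation p = 0.0299, adjusted p = 0.215), rho of -0.67 (exact permutation p = 0.0831) and r of -0.73 without the 2 libraries farthest in Cebpb and -0.80 without the 2 farthest in Prox1. Of the 36 pairs, 26 had a positive and 10 a negative r. The 8 values of each gene come from the same libraries and share their scaling.

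**Figure D4:**
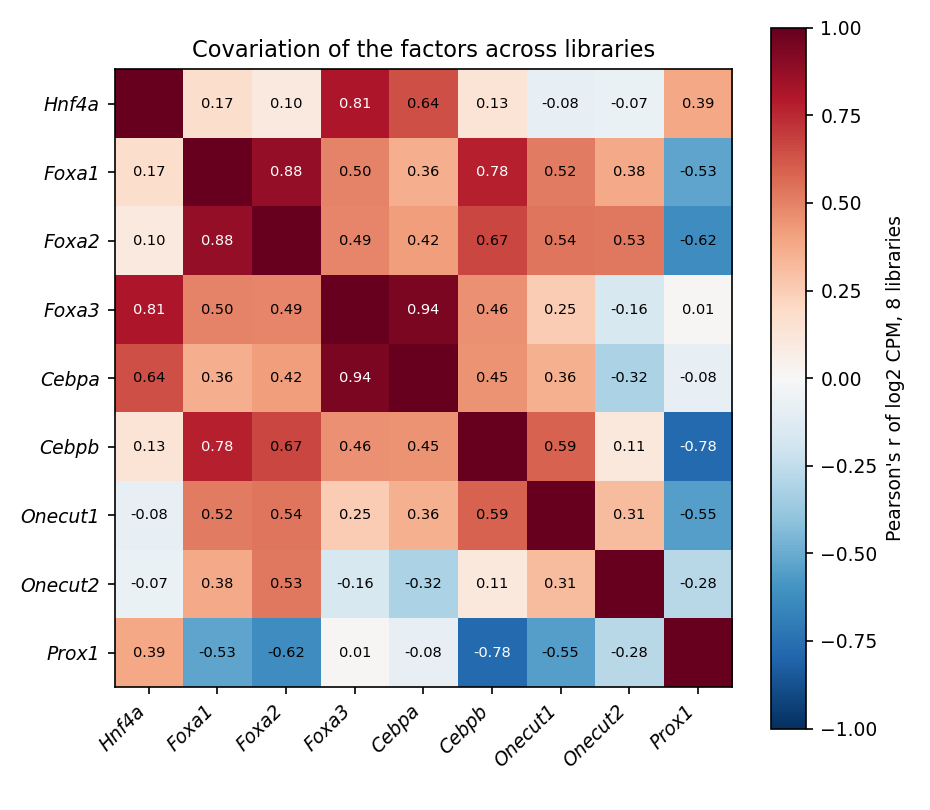
Pearson's r of log2 CPM over 8 libraries for each pair of factors (rows and columns), red for positive and blue for negative. Foxa3 with Cebpa (0.94) and Foxa1 with Foxa2 (0.88) are the highest, and Prox1 with Cebpb (-0.78) is the lowest.

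The genes whose log2 CPM ran closest to each factor over the 8 libraries, by Pearson's r, were also sought. The candidates were 11504 genes with a mean of at least 1 CPM, with predicted genes left out and the other members kept in. The closest genes all lay outside the set. They were C8b and Plcg1 for Hnf4a, Stxbp2 and Kctd15 for Foxa1, Rdm1 and Idnk for Foxa2, Susd4 and Ces4a for Foxa3, and Polr1c and Slc46a1 for Cebpa. For Cebpb they were Mad2l1bp and Ccdc122, for Onecut1 Dcun1d5 and Zfp672, for Onecut2 Mospd1 and Rbm20, and for Prox1 Bcl6 and Ugt1a1. With so many candidates a close match was common. The best r of a factor ran from 0.936 for Mad2l1bp with Cebpb to 0.985 for Polr1c with Cebpa, and the median of the best r over all 11504 genes was 0.969.

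Genes that these factors are known to drive did not pass the test either. Of 20 HNF4A target genes 8 had a positive and 12 a negative difference, the median being -0.021, beside -0.0055 over all genes and 48.2% positive. The bile acid enzyme Cyp8b1 stood at 664 ± 124 against 537 ± 85.2 CPM (control against knockout, SD, n = 4), or -0.30 on the log2 scale with edgeR's adjusted p of 0.9998. F9, clotting factor IX, had a log2 fold change of 0.17. Of 14 FOXA target genes 10 were negative (median -0.031), and of 13 CEBPA target genes 9 (median -0.041), with 0 in either list passing. Both lists hold Pck1, at -0.78, and G6pc, glucose-6-phosphatase, at -0.54. They also share Tat, Alb and Cps1, all negative, and the HNF4A and FOXA lists share Apoa1, Apob, Slc2a2 and Ttr. The lists are thus not separate observations. G6pc stood at 695, 1010, 481 and 518 CPM in control and at 302, 464, 582 and 518 CPM in knockout replicates 1 to 4, highest in control replicate 2 as were Hnf4a, Foxa3, Cebpa and Pck1. Without that library G6pc was at -0.28 and Pck1 at -0.36. Slc10a1, the bile salt uptake carrier, had a log2 fold change of -0.21, and Tat, tyrosine aminotransferase, -0.39. Without control replicate 2 these were -0.12 and -0.10, and Cyp8b1 was at -0.20. Tat was at -0.23 without knockout replicate 1 and -0.60 without knockout replicate 3, and F9 at 0.098 without knockout replicate 1.

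Of 9 ONECUT1 target genes, of which Hnf4a and Foxa2 are themselves members, 7 were negative with a median of -0.081, and 0 passed. G6pc, Tat, Cyp7a1 and Ttr of this list are also in lists given above. Cyp7a1, the rate-limiting enzyme of bile acid synthesis, stood at 50.8, 99.9, 142 and 71.5 CPM in control and at 77.8, 44.1, 75.4 and 27.5 CPM in knockout replicates 1 to 4, a log2 fold change of -0.70 (SE 0.43) that was -0.39 without control replicate 3. Its highest and lowest libraries, control replicate 3 and knockout replicate 4, were also those of Onecut1. This match was picked after the values were seen, and G6pc of the same list was highest in another control library. Whether Cyp7a1 varied with Onecut1 was not tested.

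C/EBP-beta is known to act on acute phase genes, most of which encode plasma proteins. Of 17 such genes 12 were positive and 5 negative, with a median of 0.099, and 0 passed. Saa1, serum amyloid A, stood at 115, 47.7, 102 and 231 CPM in control and at 1166, 79.5, 109.8 and 168 CPM in knockout replicates 1 to 4. One library, knockout replicate 1, lay far above the rest. It was also the library with the least Cebpb, at 24.3 CPM, beside 25.2 CPM in knockout replicate 4. This match was picked after the values were seen, and whether Saa1 varied with Cebpb was not tested. The log2 fold change of Saa1 was 1.62 (SE 0.98), and -0.06 without knockout replicate 1. The median of the list was also -0.06 without it. Crp, C-reactive protein, and Orm1, an acid glycoprotein, stood 0.19 and 0.28 apart on the log2 scale, with Orm1 at 0.080 without knockout replicate 1 and Crp at 0.12 without knockout replicate 4.

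Of 30 other liver transcription factors 14 were positive and 16 negative, with a median of -0.026, and 0 passed. In 2 of the 30 the groups did not overlap, against 1.53% of all genes. They were Zhx2, a repressor at 16.2 ± 0.50 and 14.9 ± 0.39 CPM (SD, n = 4) that is named after its values were seen, and Atf5, a stress response factor, at 358, 328, 374 and 330.1 CPM in control and at 391, 412, 408 and 415 CPM in knockout replicates 1 to 4. Its log2 fold change was 0.23 (SE 0.078), with edgeR's unadjusted p of 0.0151 and adjusted p of 0.9998. Tef and Dbp, clock-controlled factors, had log2 fold changes of -0.22 and -0.40, with unadjusted p of 0.0368 and 0.0622 in edgeR. Dbp was at -0.23 without control replicate 3. Atf5 and Tef were the 2 of the 30 with an unadjusted p under 0.05, and Tef had 0.097 to 0.11 without control replicate 2, control replicate 3 or knockout replicate 2. Of 17 paralogs, partners and cofactors 16 were tested, 9 positive and 7 negative, with a median of 0.01 and none passing. Hdac3, a deacetylase of corepressor complexes, and Cebpe, a C/EBP paralog, had log2 fold changes of 0.13 and 0.22, and Cebpe was at 0.12 without knockout replicate 1.

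Genes of the fetal or dedifferentiated hepatocyte stayed low in both genotypes. Of 10 such genes 5 passed the filter on low counts, 3 positive and 2 negative, and 0 passed the test, with an unadjusted p under 0.05 for Gpc3 alone. Gpc3, an oncofetal proteoglycan, stood at 2.44, 0.755, 0.782 and 1.84 CPM in control and at 0.313, 0.644, 0.831 and 0.732 CPM in knockout replicates 1 to 4, which is -1.20 on the log2 scale (SE 0.44, unadjusted p of 0.0203 and adjusted p of 0.9998 in edgeR). The unadjusted p was 0.0723 without control replicate 1, 0.0518 without control replicate 4 and 0.0504 without knockout replicate 1. The groups overlapped, and only control replicates 1 and 4 stood above the others. Afp, alpha-fetoprotein, stood at 1.03 ± 0.13 and 1.19 ± 0.34 CPM, and H19, a fetal non-coding RNA, at 1.68 ± 1.41 and 0.896 ± 0.49 CPM in control and knockout livers (SD, n = 4).

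**Figure D5:**
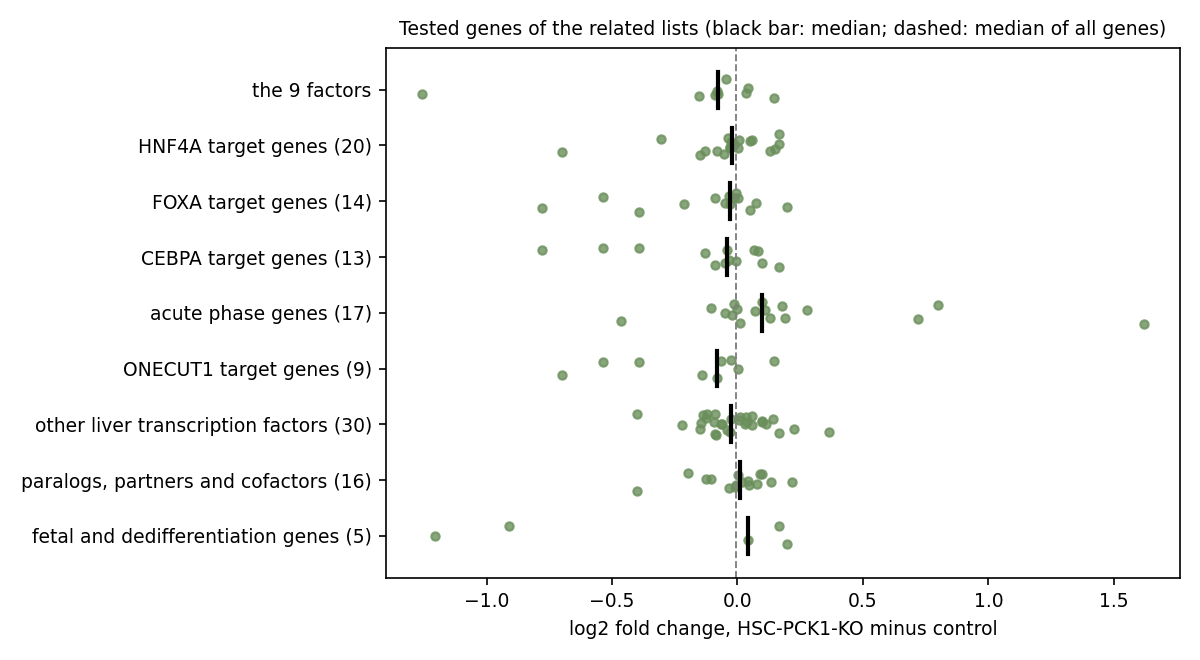
Log2 fold change (horizontal axis) of every tested gene in the 9 factors and the 8 related lists, with the number tested in parentheses, a black bar for the median of each list and a dashed line for the median of all genes tested. The medians lie between -0.081 (ONECUT1 target genes) and 0.099 (acute phase genes), and Onecut1 at -1.26 and Saa1 at 1.62 lie farthest out.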

How the data were processed

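Raw counts per gene, 1 file per library, were deposited by the authors. The build named by the submitters' processing notes is GRCm39, beside R 4.3.2. Which aligner, counter, annotation release and strand setting were used is not given in the sources here. Per the labels' protocols the libraries were strand-specific, poly(A)-selected and paired-end. Symbols and exon lengths came by identifier from GENCODE M21 (build GRCm38), which named 52029 of 56953 identifiers, so no gene coordinates of the counts are given, and promoter coordinates are RefSeq's on GRCm38.p6.

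Counts were analysed in R 4.3.3 with edgeR 4.0.16 (filterByExpr, TMM, robust quasi-likelihood F-test, genotype as the only term), adjusted by Benjamini-Hochberg over 15669 genes at a threshold of 0.05. Intervals are 95%. CPM uses TMM-scaled totals, and log2 CPM a prior count of 2. Over all 8 libraries, exact tests used all 70 assignments for ratios and all 40320 pairings for correlations. With libraries left out, they used every assignment or pairing of the libraries that remained. The median SE over all genes was 0.132. Copies were checked for: chi-square per degree of freedom between libraries of a group was at least 48.9.

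The members, the 8 gene lists and 6 marker lists (148 symbols, all found) were chosen with earlier results of these data known. The text names the members, Pck1, the 3 list genes with the smallest p, the 2 genes closest in r, and marker genes. Other genes were picked with their values known. Some list genes that this rule names are not reported here. Tried as alternatives were scaling by RLE or upper quartile, dropping the filter or asking for 1 CPM in 4 libraries, DESeq2 1.42.0, limma 3.58.1 (voom, sample weights), a term for the replicate number, and each library left out. Because separate mice are not stated, p-values measure only the spread between these samples.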

Additional observations from a re-analysis of the deposited data

Results flagged for a closer look

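By a rule on the gap to the nearest value over the range, 4 of 22 groups of 4 libraries had 1 library at a distance from its fellows. The rule used CPM and not log2 CPM for the members, and log2 values for the ratios. The 1.1 such groups expected by chance assume independent groups with normal spread, but these genes share the same libraries. The count of 4 against 1.1 is therefore not a test. Foxa2 stood at 43.0 CPM in control replicate 3, against 21.4 to 24.2 CPM in the other controls. Onecut1 stood at 19.6 CPM in the same library, against 2.60 to 5.50 CPM, with a gap of 0.8291 of the range, at the edge of the rule. Foxa3 stood at 53.7 CPM in knockout replicate 3, against 33.7 to 36.4 CPM in the other knockout libraries. Onecut2 stood at 86.4 CPM in knockout replicate 3, against 97.8 to 99.5 CPM, and was the only low value among the 4.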

How the results depend on the processing

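No member passed under any setting, but signs of small differences turned. DESeq2 called 6 genes, none of them a member, and 0 to 1 were called as each library was left out, the 1 being Gm15920 without control replicate 1. The log2 fold change of Prox1 was 0.039 by limma-voom with sample weights. As each library was left out, the log2 fold change ran from -0.15 to 0.013 for Hnf4a, -0.064 to 0.22 for Foxa1, -0.34 to 0.048 for Foxa3, -0.18 to 0.017 for Cebpa, -0.19 to 0.088 for Cebpb, -0.16 to 0.084 for Prox1 and -0.060 to 2.11 for Saa1, and the difference in the log2 ratio of Cebpb to Cebpa from -0.14 to 0.11. Foxa2, Onecut1 and Onecut2 kept their sign, with ranges of 0.041 to 0.45, -1.67 to -0.29 and 0.0077 to 0.11. Member pairs past an adjusted p of 0.05 numbered 2 after centring within groups and 0 without the 2 farthest libraries, where 6 libraries remain. For these the cause was not tested. With the replicate number as a block 0 genes passed, Hnf4a was at -0.072 and Onecut1 at -1.19, and no call changed. Same-numbered libraries had correlations of -0.33 to 0.058 in their deviations, and 1 of 8 libraries correlated best with its own number, so the numbers were not taken as pairs. Depth was ample except for Onecut1, whose lowest library held 28 counts.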

Other observations

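Some members have neighbours on the opposite strand, most of them non-coding. Hnf4aos, which overlaps the Hnf4a gene but shares none of its exons, stood at 2.52, 4.62, 3.89 and 2.32 CPM in control and at 5.43, 3.44, 3.97 and 3.98 CPM in knockout replicates 1 to 4. Prox1os, which shares 133 exonic bases with Prox1, stood at 4.28, 7.10, 7.14 and 6.95 CPM in control and at 6.59, 6.36, 6.92 and 7.30 CPM in knockout replicates 1 to 4. Gm45091, an antisense gene that shares 51 exonic bases with Cebpa, stood at 1.76 to 3.40 CPM in control and 1.89 to 2.48 CPM in knockout libraries. Tmem189, a protein-coding gene that shares 312 exonic bases with Cebpb on the opposite strand, stood at 15.99 to 19.4 CPM in control and 18.0 to 23.6 CPM in knockout libraries. The strand setting of the counting is not given in the sources used here, so reads in the shared stretches cannot be told apart.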
